A study of Homo sapiens with 4 samples.

Results

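The 13127 regions that the authors called as peaks in an HSF1 immunoprecipitate (IP) over its own input are described here, out of 28916 peaks in the HSF1 and H3K27ac lists of the series together. Every region of the annotated HSF1 list was kept as a member, with the gene of its first row, and no threshold was set on the peak caller's scores. Both libraries came from HCT116, an established human colorectal carcinoma line, cultured at 37 °C in medium with 10% serum and 5% CO2 and fixed with no heat shock, drug or genetic change. The series also held an H3K27ac IP and its input from the same line, used here only to show where the HSF1 peaks differ. Each group was 1 library, and no replicate error can be given. Intervals are exact and cover counting error at 95% only, regions of 1 library are not replicates, and no test between conditions was possible.

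Heat shock factor 1 (HSF1) is the transcription factor that switches on chaperone genes when proteins misfold. In unstressed cells most of it is held inactive by chaperones. After activation it assembles into trimers that bind heat shock elements, arrays of alternating GAA and TTC units, mostly in the promoters of genes for heat shock proteins and their helpers. Tumour cells can also use HSF1 without heat, and the study asked about its part in transcription and glutamine transport in colorectal cancer.

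To show which sequence HSF1 is known to recognise, and which of the members carried it at a start site, promoter windows of RefSeq (GRCh38.p14, 250 bases before to 50 after a transcription start) were searched for 2 units (GAANNTTC or TTCNNGAA), 3 units (GAANNTTCNNGAA or TTCNNGAANNTTC) and 4 units (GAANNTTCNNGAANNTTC or TTCNNGAANNTTCNNGAA). Each pair covers both strands, and the longer arrays contain the shorter ones. The matches below are in capitals, with flanking bases in lower case. TMEM95 is shown because its start lay inside an HSF1 peak, and the others because they are heat shock genes with an array of 3 or 4 units and no HSF1 peak.
TMEM95: cattgTTCTGGAACATTCTAGAAcctcc
CHORDC1: gaccgGAAAATTCGCGAAGGTTCctgaa
HSPD1: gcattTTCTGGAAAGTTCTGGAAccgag
HSPA8: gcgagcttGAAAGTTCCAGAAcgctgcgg
HSPA6: cggaaaggTTCGCGAAAGTTCgcggcggc
HSP90AA1: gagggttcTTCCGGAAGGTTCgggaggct
SERPINH1: ttccaactTTCCAGAAGTTTCtcgggacg

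TMEM95, which encodes a sperm membrane protein, had the array of 4 units on the plus strand at chr17:7355098-7355125 of GRCh38.p14, beginning 53 bases before the start. CHORDC1, an HSP90 co-chaperone, had 4 units 60 bases before its start (chr11:90223087-90223114, minus strand). HSPD1, the mitochondrial chaperonin HSP60, had 4 units 245 bases before the start (chr2:197500063-197500090, minus strand). HSPA8, the constitutive HSP70, had 3 units at chr11:123062346-123062374 on the minus strand. HSPA6, a strictly inducible HSP70, had 3 units at chr1:161524458-161524486 on the plus strand, and HSP90AA1, the inducible HSP90, at chr14:102087112-102087140 on the minus strand. SERPINH1, the collagen chaperone HSP47, had 3 units at chr11:75562169-75562197 on the plus strand. Of 35116 RefSeq promoters, 13.5% held 2 units, 0.49% held 3 and 0.0342% held 4.

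1 heat shock gene had an HSF1 peak. A peak was assigned to 1 of 61 heat shock proteins and co-chaperones, or 1.64% (interval 0.0415 to 8.80%), against 13.4% of all RefSeq genes. The list's median gene length was 15.1 kb, and protein-coding genes of 10 to 30 kb had a peak in 6.70% of cases, a share inside that interval. Within 10 kb of a start the share was 1.64%, against 3.01% of all RefSeq genes. The gene was FKBP4, which encodes the HSP90 co-chaperone FKBP52. Its peak at chr12:2903475-2904554 (hg19, as for all peak positions below) held 18 tags (Poisson interval 10.7 to 28.4). The FKBP4 start lay inside the peak and the summit was 0.303 kb upstream of it. In the chaperonin that folds actin and tubulin, 1 of 8 subunit genes had a peak, CCT2, with 17 tags in an intron 6.74 kb downstream of the start. The 61 genes were not short of H3K27ac in the same line, since 25 of them (41.0%) had an H3K27ac peak. This was set against 22.7% of all RefSeq genes and 26.6% of protein-coding genes. An H3K27ac peak of the promoter class was assigned to 17 of the 61, and to 2372 genes over the whole list, beside 29849 RefSeq genes counted. HSPB1 and DNAJB1, a small heat shock protein and the HSP40 partner of HSP70, had 44 and 51 tags in their strongest H3K27ac peak and no HSF1 peak.

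For the 29 heat shock genes whose hg19 start appeared in either list, the distance from the start to the nearest HSF1 peak could be given. HSPA6 (32.9 kb), PTGES3, the HSP90 co-chaperone p23 (42.2 kb), and HSP90B1, the HSP90 of the endoplasmic reticulum (56.3 kb), came next after FKBP4. DNAJC7 at 2324 kb and HSPA5, the HSP70 of the endoplasmic reticulum, at 2467 kb were the farthest. A start is known here only for genes that a row of either list names, so these distances cover a selected subset and were not compared with other genes.

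Heat shock elements were compared with peaks at promoters. Of the 53 heat shock genes with a RefSeq promoter, 9 (interval of the share 8.07 to 29.8%) held 3 or more units, and none of the 9 had an HSF1 peak. Of all RefSeq genes 13.4% had any HSF1 peak and 0.633% a promoter-class one, so none among 9 genes is not read as a shortage. Of the 113 genes with a promoter-class HSF1 peak and a RefSeq promoter, 2 held 3 or more units (1.77%, interval 0.215 to 6.25%), against 0.608% of 27305 genes, and 17 held 2 units (15.0%), against 16.2%. The 2 genes were TMEM95 and ATP2C1, a calcium pump of the Golgi. The TMEM95 peak (chr17:7258048-7258810) held 13 tags, the minimum of the list, and its summit was 0.027 kb upstream of the start. For ATP2C1 the array was in the window of another start, 44.0 kb downstream of the first RefSeq start, while its promoter-class peak (chr3:130568674-130569787, 17 tags) lay at the more upstream of the 2 starts in the list. The search covers promoter windows only, and the peaks elsewhere were not searched.

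The list itself was even in tags per kb. Peaks had a median width of 1313 bp, with quartiles of 1089 and 1740 bp and a range from 526 to 10973 bp. Tags per peak, the whole-number reads that the authors counted in each region, had a median of 20 with quartiles of 17 and 27, and ranged from 13 to 451. The Poisson interval of a count of 20, from 12.2 to 30.9, took in 10950 peaks, or 83.4%. Its lower bound lay below the list's minimum of 13, so only higher counts could fall outside it. Tags rose with width across peaks (Spearman correlation 0.95, n = 13127, both measures taken from the same call), so that tags per kb hardly varied. Their median was 15.4, and the 5th and 95th percentiles were 13.5 and 18.8, a ratio of 1.39. For H3K27ac the median was 20.5 tags per kb with a ratio of 1.44. The depth of neither library was given in the sources used here, so levels in the 2 lists were not compared.

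**Figure D1:**
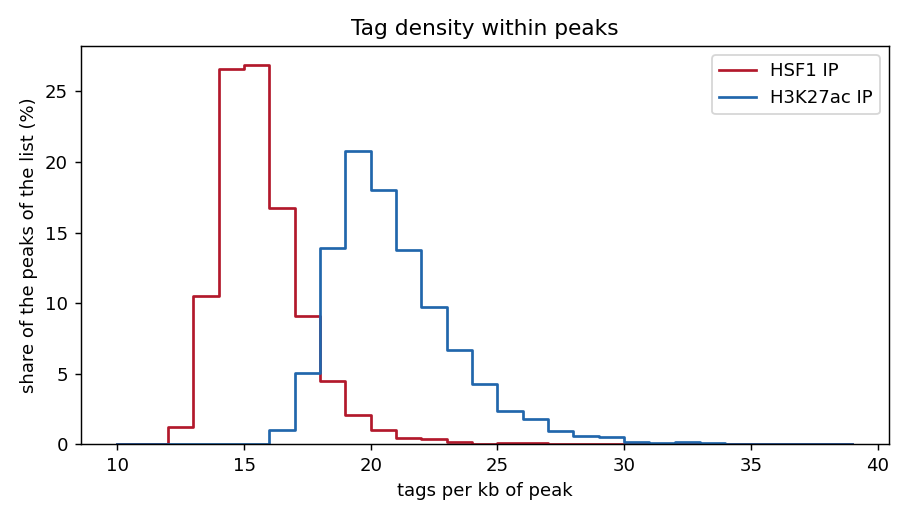
Share of the peaks of each list (%) by tags per kb of peak, in steps of 1 tag per kb, for the HSF1 IP (red) and the H3K27ac IP (blue). HSF1 peaks lie close around 15.4 tags per kb, and 11 HSF1 and 7 H3K27ac peaks at 40 tags per kb or more are not drawn.

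Peaks of the promoter class had slightly fewer tags than intron and intergenic peaks. The median was 18 tags for 192 promoter-class and 93 exon peaks, 19 for 858 upstream peaks, and 20 for 3775 intron and 8209 intergenic peaks. Tags per kb were between 15.3 and 15.5 in each class. The summit, the base with the most overlapping tags, fell between 33.3% and 66.7% of the peak's width in 60.9% of peaks (interval 60.1 to 61.8%), and a median of 170 bp from the midpoint. For H3K27ac, which sits on broad nucleosomal regions, the share was 59.7% (interval 59.0 to 60.5%) and the distance 157 bp.

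A small group of peaks stood apart. 53 peaks (0.404%) had 25 tags per kb or more and held 1.76% of all tags. The peak with the most tags, 451 at 203 tags per kb, was at chr5:9782-12004, next to the chromosome end and 81.4 kb upstream of PLEKHG4B, a guanine nucleotide exchange factor. The peaks with the next most tags were assigned to ZNF733P, a pseudogene (333 tags), LINC02987, a noncoding RNA (265), POTEH-AS1 (228) and FANK1, a testis-expressed gene (221). Those of ZNF733P and LINC02987 lay 1522 and 398 kb from the assigned start. FAM230E had 214 tags in 1057 bp, or 202 tags per kb, and FAM230D had 184 tags in 998 bp at its start. FAM230G and FAM230J reached 72.2 and 50.3 tags per kb. The widest peak, 10973 bp with 228 tags, was that of POTEH-AS1 on chromosome 22, followed by BMS1P22 at 9934 bp, ZNF733P at 9566 bp, LINC02987 at 9223 bp and POTEH at 8966 bp. None of these 5 exceeded 28.7 tags per kb. FAM230, POTE and BMS1 sequences exist in near-identical copies between which reads could be split or gathered, so these values are uncertain. The part of such copies in the tags was not tested, for these or for the other peaks of the group.

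The first kb beside transcription starts held HSF1 peaks at a rate in the range of those out to 20 kb. 93 peaks (0.708%) had their midpoint within 1 kb of the assigned start, and 192 within 2 kb, which is the promoter class. Upstream of starts there were 44 peaks per kb of distance at 0 to 1 kb (interval 32.0 to 59.1), 55.7 at 2 to 5 kb (interval 47.5 to 64.8) and 44.7 at 10 to 20 kb (interval 40.7 to 49.0). Downstream there were 49 at 0 to 1 kb and 42.2 at 10 to 20 kb. The rates in the first kb on either side thus lay within counting error of those at 10 to 20 kb, while the rate at 2 to 5 kb upstream was somewhat higher. Farther out the rate fell, to 24.9 per kb at 20 to 50 kb, 10.3 at 100 to 200 kb and 4.20 at 200 to 500 kb upstream. For H3K27ac the rate fell from 603 per kb at 0 to 1 kb upstream to 123 at 10 to 20 kb, and from 735 to 88.9 downstream. At the far end, 1631 HSF1 peaks (12.4%) lay over 500 kb from the assigned start, against 1.75% of H3K27ac peaks.

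**Figure D2:**
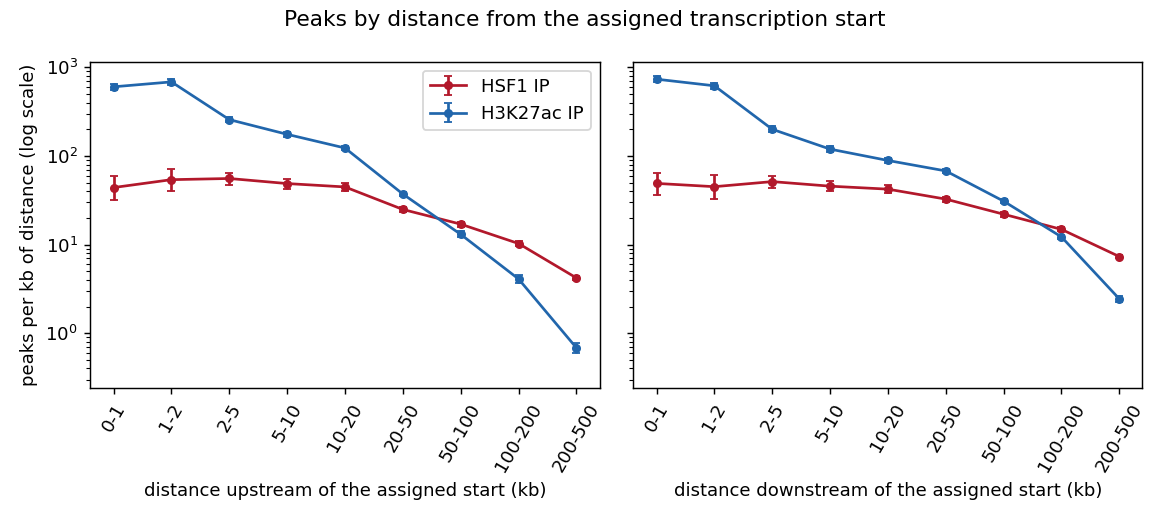
Peaks per kb of distance (log scale) upstream and downstream of the assigned transcription start, for the HSF1 IP (red) and the H3K27ac IP (blue), with exact Poisson intervals. HSF1 peaks stay between 42.2 and 55.7 per kb from 0 to 20 kb and fall beyond, while H3K27ac peaks fall from the first 2 kb outward.

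The 192 promoter-class peaks belonged to 189 genes, 0.633% of RefSeq genes. Of these genes 85 were protein-coding, 70 lncRNA and 15 miRNA genes. Tags ran from 13 to 228. The promoter peaks with the most tags were again at duplicated or noncoding genes, POTEH-AS1, FAM230D, SRGAP2-AS1 (133 tags), IGHV1OR15-1 (89), FAM230J (85) and OR4C45 (64), an olfactory receptor gene. KCNJ18, a potassium channel of skeletal muscle, had 61 tags, and AMY1A, a salivary amylase gene with near-identical neighbours, had 55. Among genes with a unique name in their family, RUNX1T1, a transcriptional corepressor, had 46 tags with the summit 0.032 kb from the start. FGF14, an intracellular regulator of sodium channels, had 38 tags with the summit 1.03 kb upstream, and DPP10, an auxiliary subunit of potassium channels, had 31 with the start inside the peak. The rest of the 20 strongest were noncoding genes and pseudogenes with 30 to 47 tags.

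The assigned start lay inside the peak in 66 cases, and 26 protein-coding genes had 1 or more such peaks. Chosen after their values were seen, ROBO1, an axon guidance receptor (27 tags), CDH18, a cadherin of the nervous system (29 and 24 tags at 2 starts), EIF4E3, a cap-binding protein (22), MICAL1, an actin oxidase (21), and ATP5F1B, the beta subunit of mitochondrial ATP synthase (17), were of this kind. Of the 20 such peaks with the most tags, 1 overlapped an H3K27ac peak, that of TBC1D19, a Rab GTPase activator (20 tags).

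Long genes had a peak more often than short ones. Of protein-coding genes up to 10 kb long, 6.91% had an HSF1 peak, and the share was 11.9% at 30 to 100 kb, 23.6% at 100 to 300 kb, 50.9% at 300 to 1000 kb and 82.6% (57 of 69, interval 71.6 to 90.7%) above 1000 kb. All protein-coding genes together gave 12.3%. H3K27ac behaved otherwise, with 15.9% of the shortest genes, 43.3% at 100 to 300 kb and 20.3% (interval 11.6 to 31.7%) above 1000 kb. The 3775 intron peaks of HSF1 lay in transcripts with a median length of 382 kb, against 141 kb for H3K27ac, and 41.4% of them in transcripts longer than 500 kb, against 8.21%. Within the transcript they were spread, with 21.7% in the first 20% of its length and 14.8% in the last. A longer gene offers more room for a peak, and the part of length alone was not tested.

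**Figure D3:**
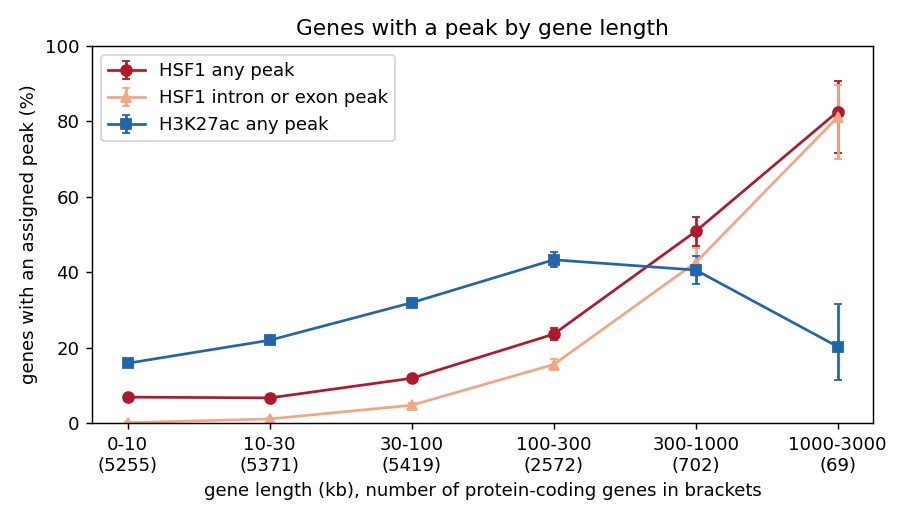
Share of protein-coding genes with an assigned peak (%) by gene length (kb, GRCh38.p14), with exact Clopper-Pearson intervals, for any HSF1 peak (red), an HSF1 peak in an intron or exon (orange) and any H3K27ac peak (blue). The HSF1 share rises to 82.6% in the longest genes, where that of H3K27ac is 20.3%.

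Peaks gathered at a small number of assigned genes, though not all lay inside them. In all, 4028 gene symbols had a peak, 2264 of them (56.2%) a single one, while 308 genes with 10 or more held 41.8% of all peaks. CSMD3, a giant membrane protein of neurons, had 77 peaks with 3343 tags, 39 of them in introns or exons of its transcript of 1214 kb. Its paralogue CSMD1 had 65 peaks and 1509 tags, with 50 of the peaks in introns or exons. TRPS1, a zinc finger repressor of skeletal development, had 57 peaks, SORCS1, a sorting receptor, 53, the contactin CNTN5 and the neurexin relative CNTNAP2 44 each, DPP10 42 and LRRC4C, a netrin-G ligand, 41. The noncoding LINC02055 and LINC01435 had 58 and 56. Of these, 40 and 45 were intergenic, as were 45 of the 57 assigned to TRPS1. None of these 10 genes had an H3K27ac peak. Their median tags per peak fell into 2 ranges, 38 to 44 for CSMD3, LINC02055, TRPS1, LINC01435 and SORCS1, and 19 to 24.5 for the other 5. The genes of the higher range lie in the segments of chromosomes 8 and 10 described below, where all peaks had a median of 35 tags. The part of the segments in this split was not tested. By type of gene, 56.1% of peaks were assigned to protein-coding and 34.1% to lncRNA genes, against 75.3% and 17.3% of H3K27ac peaks.

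2 lists of long genes were counted as well. Both were drawn up with earlier results of these data known, so their shares describe the lists and lend no support to a preference for such genes. Genes of common fragile sites, very long genes prone to breakage, had HSF1 peaks in 18 of 22 cases (81.8%, interval 59.7 to 94.8%), with 288 peaks. CSMD1, CNTNAP2, the receptor phosphatase PTPRD (39 peaks, 930 tags) and the neurodevelopmental gene AUTS2 (26 peaks, 589 tags) led, and DPYD, IMMP2L and LSAMP were among those with none. Genes of synaptic adhesion had peaks in 29 of 36 cases (80.6%, interval 64.0 to 91.8%), with 428 peaks. CNTN5 (884 tags), the presynaptic neurexin NRXN3 (771 tags in 34 peaks), CNTN4 (765 tags in 35 peaks) and CDH18 (669 tags in 30 peaks) led. H3K27ac peaks were assigned to 3 of these 36 genes (8.33%) and to 7 of the 22 fragile site genes (31.8%). The median tags per peak were 21 and 20, as over the whole list. The median gene length was 1505 kb in the fragile site list and 557 kb in the adhesion list, and protein-coding genes of 300 to 1000 kb had peaks in 50.9% of cases and longer ones in 82.6%.

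Among genes that act on HSF1, 3 of 12 had peaks (interval of the share 5.49 to 57.2%, which takes in the 13.4% of all RefSeq genes). None lay within 10 kb of a start, where 3.01% of all RefSeq genes had one. HSF2, the paralogue that forms mixed trimers with HSF1, had 3 intergenic peaks of 20, 17 and 27 tags, the nearest 114 kb upstream. EP300, the acetyltransferase that deposits H3K27ac, had 16 tags in an intron 24.0 kb downstream of its start. TTC5, a cofactor of EP300, had 14 tags downstream of its gene, in the intergenic class. HSF1 itself had none.

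In glutamine and amino acid metabolism, the metabolic theme of the study, 4 of 33 genes (12.1%, interval 3.40 to 28.2%) had peaks, close to the 13.4% of all genes. GOT2, the mitochondrial aspartate aminotransferase, had 4 intergenic peaks of 28, 19, 15 and 16 tags between 76.5 and 338 kb upstream. ASNS, asparagine synthetase, had 14 tags 8.31 kb upstream, the single peak of the list within 10 kb of a start. GFPT1, the entry enzyme of hexosamine synthesis, had 16 tags in an intron 38.7 kb downstream. The glutamine carrier SLC1A5, the light and heavy chains SLC7A5 and SLC3A2 and the cystine carrier SLC7A11 had none. Of 8 loci the study examined, 2 had HSF1 peaks, EP300 among them (interval of the share 3.19 to 65.1%, which takes in the 13.4%). LINC00857, ANXA11 and MTOR were among those with none. For LINC00857 the paper reports both HSF1 and H3K27ac at its promoter and at enhancers, measured by qPCR of immunoprecipitated DNA. It also shows public H3K27ac sequencing tracks there, and states that such tracks at its enhancer lncRNAs matched its own sequencing. After HSF1 knockdown it reports less H3K27ac and less P300 (EP300) at the locus, again by qPCR. The lists assigned LINC00857 neither an HSF1 nor an H3K27ac peak. ANXA11 had 2 H3K27ac peaks, and its start lay 392 kb from the nearest HSF1 peak. The paper places ANXA11 upstream of LINC00857 on the opposite strand, so a peak near both genes may have been assigned to ANXA11. Whether its 2 H3K27ac peaks lie at LINC00857 was not examined. Lists of nearest genes from 1 library per IP cannot show that HSF1 was absent from a locus. Whether they missed bound sites was not tested. No gene of glycolysis and lactate transport had an HSF1 peak, 0 of 21, which by its exact interval allows a share of up to 16.1%. An H3K27ac peak was assigned to 12 of the 21.

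Markers of the labelled cell type were also counted. HSF1 peaks were assigned to 7 of 28 colonic epithelial genes (interval of the share 10.7 to 44.9%), with 14 to 26 tags per peak. The peaks with the most tags included those of SOX9, a crypt progenitor factor (26 tags, 96.1 kb downstream), the intestinal cadherin CDH17 (26 tags, 113 kb downstream), and GRHL2, an epithelial regulator (25). Of leukocyte, endothelial and fibroblast genes, 4 of 22 (18.2%, interval 5.19 to 40.3%) had peaks of 17 to 20 tags, those of KDR, TEK, PTPRC and FAP. H3K27ac, which marks active genes, was assigned to 14 of the 28 colonic genes and to 5 of the 22 others (22.7%). Over all RefSeq genes the shares were 13.4% for HSF1 and 22.7% for H3K27ac. The intervals of both HSF1 shares took in 13.4% and overlapped each other.

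Few HSF1 peaks lay at or near the called H3K27ac peaks. 39 peaks (0.297%) overlapped an H3K27ac peak, 24 of them with the summit, and 52 were within 1 kb, 233 within 10 kb and 1491 (11.4%) within 100 kb. All H3K27ac peaks together covered 22.6 Mb, so a small overlap is not by itself read as avoidance. The overlap of randomly placed peaks was not computed, and a region without a called peak may still be acetylated. The median gap from an HSF1 peak to the nearest H3K27ac peak was 781 kb, with quartiles of 333 and 1454 kb. The overlapping peaks had a median of 17 tags and the others 20. The overlapping peaks with the most tags were assigned to FAM88F (48 HSF1 tags, 47 H3K27ac tags), DUSP22, a phosphatase gene (44 and 25), SNORD173 (41 and 18), FAM74A7 (41 and 34), SKAP1, an adaptor of T cells (30 and 34), FAM157C (27 and 31), SYTL3, a vesicle tether (27 and 174), CTBP2, a corepressor (25 and 27), LRATD2 (25 and 43) and MRPS23, of the mitochondrial ribosome (24 and 52). FAM88F, FAM74A7 and FAM157C have near-identical copies.

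On the scale of megabases the placement of the 2 lists was opposite. Of 2955 bins of 1 Mb, 897 (30.4%) held no H3K27ac peak, and these held 62.4% of the HSF1 peaks (interval 61.6 to 63.2%), a mean of 9.13 per bin against 2.40 in the other 2058. The mean fell from 3.71 in bins with 1 to 2 H3K27ac peaks to 1.45 in bins with over 20. Across bins the Spearman correlation was -0.38 (n = 2955), and -0.57 over the 2756 bins with a peak of either list, as a description of bins that share chromosomes and libraries. The 10 bins with the most HSF1 peaks, 40 to 58 each, held no H3K27ac peak. The bin with 58 covered 137 to 138 Mb of chromosome 8 at LINC02055, and 4 adjoining bins of chromosome 10 from 107 to 111 Mb held 43 to 48 each at SORCS1 and LINC01435. Without chromosomes 8, 10, 16 and 17, an alternative chosen after seeing the data, the means were 8.15 and 2.2.

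**Figure D4:**
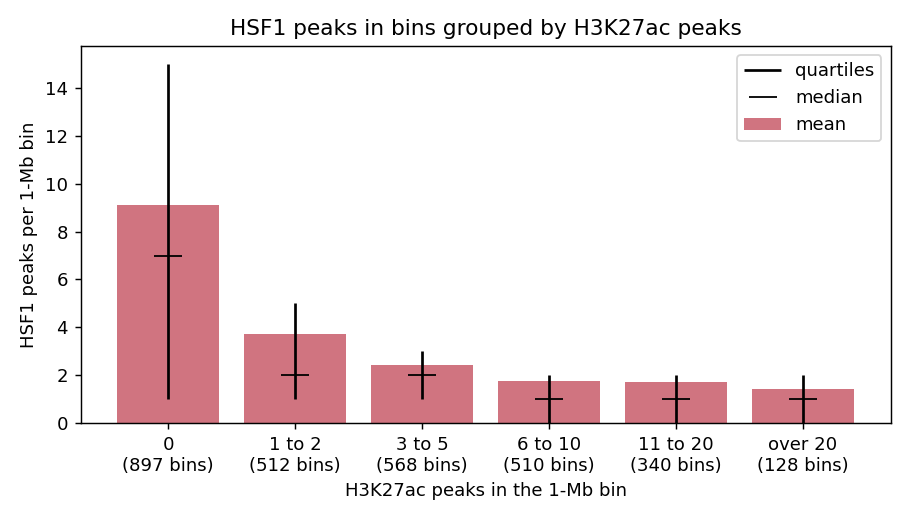
HSF1 peaks per 1-Mb bin (mean as bars, median as a dash, quartiles as a vertical line) in bins grouped by their number of H3K27ac peaks, with the number of bins in brackets. Bins without H3K27ac hold a mean of 9.13 HSF1 peaks and bins with over 20 a mean of 1.45.

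Peaks came in runs. The median gap between neighbours was 58.5 kb, with quartiles of 19.5 and 172 kb, and 64.5% of peaks (8469) had a neighbour within 50 kb, in 2450 clusters of which 71 held 10 or more peaks. The largest cluster, of 51 peaks with 2201 tags, spanned 743 kb of chromosome 8 (chr8:136866466-137609183) at LINC02055 and KHDRBS3, an RNA-binding protein. Next were 33 peaks over 645 kb of chromosome 10 at LINC01435, 31 over 420 kb of chromosome 8 at LINC00536, 29 over 442 kb of chromosome 16 at CDH13, an atypical cadherin, and 27 over 349 kb of chromosome 8 at LOC101927915. No H3K27ac peak lay in any of these 5 spans. All 5 were on chromosomes 8, 10 and 16.

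Chromosomes differed in density and in tags. Over chromosomes 1 to 22 and X there were 4.47 peaks per Mb, with 9.87 on chromosome 8 (interval 9.37 to 10.4), 7.63 on 18 and 7.43 on 21, and 1.99 on 22 and 0.247 on X (37 peaks, interval 0.174 to 0.340). H3K27ac was also sparse on X, at 0.133 per Mb. In 19 of 23 chromosomes the median tags per peak were 16 to 20. The other 4 were chromosomes 8 (30), 17 (27.5), 10 (25) and 16 (23), and there the H3K27ac medians were also high, at 33, 36, 29 and 26 tags against 19 to 23 elsewhere.

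For HSF1 the excess in tags was in segments of these chromosomes. With bounds set after the values were seen, peaks beyond 60 Mb of chromosome 8 had a median of 35 tags (1055 peaks, 12.3 per Mb), against 20 tags on the rest of the chromosome (6.43 per Mb). Beyond 100 Mb of chromosome 10 the median was 35 tags against 19.5, beyond 70 Mb of chromosome 16 it was 30 against 20, and between 40 and 70 Mb of chromosome 17 it was 34 against 18. The 4 segments together held 1786 peaks (13.6%) with a median of 34 tags and 2091 bp, against 19 tags and 1248 bp outside. Tags per kb hardly differed, at 16.4 and 15.3. H3K27ac peaks had a median of 37 tags inside and 23 outside. On chromosome 17 the H3K27ac median was 39 inside the segment and still 33 on the rest, while on the rest of chromosomes 8, 10 and 16 it was 23. HCT116 is known to carry extra copies of parts of the long arms of chromosomes 8, 10, 16 and 17. Copy number was not measured, and its part in these tag counts was not tested.

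**Figure D5:**
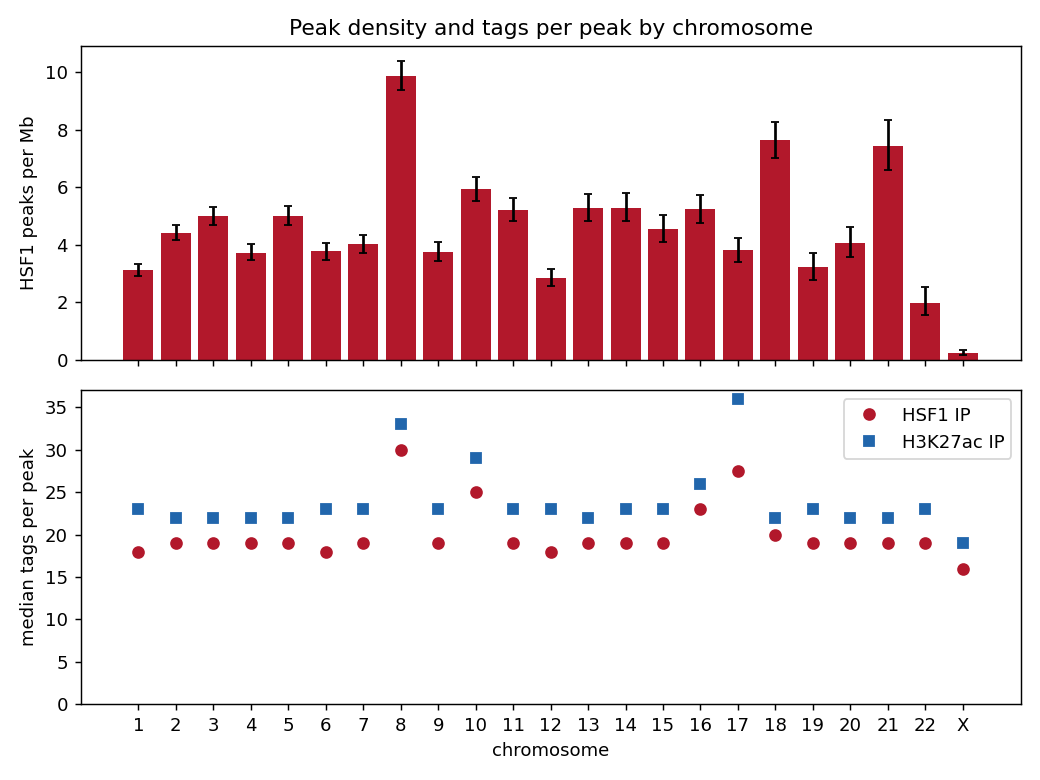
Upper panel, HSF1 peaks per Mb of each chromosome with exact Poisson intervals, and lower panel, median tags per peak for the HSF1 IP (red circles) and the H3K27ac IP (blue squares). Chromosomes 8, 10, 16 and 17 have the highest medians in both lists, and chromosome 8 has the most HSF1 peaks per Mb, 9.87.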

How the data were processed

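HSF1 was immunoprecipitated from 1 HCT116 culture and sequenced beside its input. The submitters' processing notes list Bowtie2 2.2.7, FastQC and the build hg19. Peaks of the IP over the input came from MACS, as the methods of the study state. The sources used here give neither library depths nor read filters. The authors deposited tag counts per peak as whole numbers without normalization, with width, summit, class, transcript and distance of the midpoint to its start. The deposited p-value score, fold enrichment and false discovery rate of the caller were not used. Promoter-class peaks reach 2 kb to either side of a start, and upstream-class peaks go on to 20 kb.

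The 24461 rows were reduced to the first row of each of 13127 regions, of which 8 lie outside chromosomes 1 to 22 and X. Of 4101 symbols 4091 matched RefSeq (GRCh38.p14), by accession, symbol or synonym. Genes were counted among 29849 RefSeq genes with a curated transcript. A nearest gene is an assignment, not a measured target. Clusters joined peaks with gaps up to 50 kb, and overlap needed 1 bp. Bins of 1 Mb ran between the outermost peaks of each chromosome.

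Shares have Clopper-Pearson intervals, tags and rates exact Poisson intervals, and medians order-statistic intervals, all at 95%. Reads are not independent molecules, so intervals cover counting error only. Members and gene lists were chosen with earlier results of these data known. Named peaks were the 10 with the most tags, the 10 densest in tags per kb, the 10 widest, the 20 promoter-class peaks with the most tags, the 10 overlapping H3K27ac peaks with the most tags, the 10 genes with the most peaks, the 5 largest clusters, every peak of the heat shock, HSF, glutamine and study loci lists, and up to 4 members with the most tags of each other list. A few genes that these rules name are not reported here. Alternatives covered a minimum of 20 or 30 tags, other rows, distances, overlaps, cluster gaps and gene assignments. The overlap, distance and cluster steps and the interval on shares were tested on planted or simulated data. The other steps were not tested in this way. The software was Python 3.11.15 (scipy 1.17.1, pandas 2.3.3, numpy 2.4.6, with matplotlib 3.10.9 for plots).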

Additional observations from a re-analysis of the deposited data

How the results depend on the processing

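The list rests on 1 HSF1 library and 1 input, so nothing here is a measure of biological spread. No paired analysis was possible because each group had 1 library and no result comes from a test. Of 107 alternatives over 15 results, 61 stayed within the 95% interval of the reported value and 46 did not. Restriction to chromosomes 1 to 22 and X, the row with the nearest start and distances from the summit moved none of the results they were applied to.

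With at least 20 tags, the median width was 1701 bp, tags 26, tags per kb 15.5, the promoter class 1.20%, the distance to the start 162 kb, peaks beyond 100 kb 62.4%, genes with a peak 7.33%, H3K27ac overlap 0.186%, the gap 71.5 kb, peaks in clusters 58.7%, central summits 63.4% and heat shock genes 0%, FKBP4 being lost at 18 tags. With at least 30 tags, the same values were 2350 bp, 37, 16.2, 1.03%, 173 kb, 64.6%, 2.89%, 0.205%, 74.2 kb, 55.3%, 43.6% and 0%, with 0% of glutamine genes and 54.5% of fragile site genes.

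H3K27ac overlap was 0.183% by summit and 0.183% with at least 50% of the HSF1 peak covered. Clustered peaks were 41.8% at 20 kb and 78.4% at 100 kb. Within 10 kb of the start, 3.01% of genes, 3.03% of glutamine genes and 4.55% of fragile site genes (1 of 22) had a peak, so the count of fragile site genes is one of distant peaks. Protein-coding genes gave 12.3%.

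Alternatives chosen after seeing the data left out peaks of 25 tags per kb or more, which moved nothing, or the 4 segments of chromosomes 8, 10, 16 and 17. Without the segments the values were 1248 bp, 19 tags, 15.3 tags per kb, 131 kb, 56.9% beyond 100 kb, 12.4% of genes, gaps of 67.1 kb, 61.3% in clusters and 62.0% central summits. The share of HSF1 peaks in bins without H3K27ac was 78.6% in bins of 0.5 Mb, 36.6% in bins of 2 Mb and 74.6% with at least 30 tags, and the means per bin kept their order in each, with ratios of 4.66, 2.45 and 6.74. Bin size sets how many bins are empty of H3K27ac, 44.1% and 19.1%.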
